A study of Mus musculus with 18 samples.

Results

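The genes described were 10 that write, keep, protect or remove DNA methylation in mouse oocytes. They were Dnmt1, Uhrf1, Dnmt3a, Dnmt3b, Dnmt3l, Tet1, Tet2, Tet3, Dppa3 and Zfp57, chosen by gene symbol. All 10 were found among the 28252 genes of the TPM table (transcript abundance per gene length, scaled to the same sum in each library) and among the 53715 genes of the count table. Bulk RNA sequencing had been done on 18 libraries of mouse oocytes, with 3 libraries in each of 6 groups. Oocytes of primordial follicles, of primary follicles and at MII (mature eggs arrested in the second meiotic division) were each sequenced from a sham and an NTY group. All mice were of the strain C57Bl/6j x CBA/J and all libraries were marked as in vivo, with no age and no separate treatment stated. NTY is explained in no source used here, so it is kept as a name only. The 12 libraries of primordial and primary follicles came from cells cut out of tissue with a laser, with the RNA of caps pooled by oocyte stage, amplified and captured for coding RNA. The 6 MII libraries came from collected oocytes by Smart-seq II. Stage and library method therefore cannot be told apart between MII and microdissected libraries. No source says whether libraries of a group came from different animals, so p-values measure only the spread between libraries, which may be technical.

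DNA methylation is nearly erased in early germ cells and is laid down again on the maternal genome while the oocyte grows. Dnmt3a adds the new marks with its catalytically inactive partner Dnmt3l, whereas Dnmt1 copies marks to the new strand after replication and is guided there by Uhrf1. Dnmt3b is a further de novo enzyme, known best from the early embryo. The Tet enzymes oxidise methylated cytosine, and Tet3 is the one supplied by the egg to the zygote. Dppa3 (also called Stella) shields the maternal genome from this oxidation after fertilisation and restrains Uhrf1 in the oocyte. Zfp57 is a zinc finger protein that holds methylation at imprinted regions in the embryo.

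The 10 genes lay on 7 chromosomes of the GRCm38 build, all annotated as protein coding in GENCODE M21. Dnmt1 spans chr9:20907209-20959888 on the minus strand and Uhrf1 chr17:56303321-56323486 on the plus strand. Dnmt3a spans chr12:3806007-3914443, Dnmt3b chr2:153649450-153687730 and Dnmt3l chr10:78041947-78063622, all on the plus strand. Tet1 (chr10:62804570-62908996), Tet2 (chr3:133463679-133545139) and Tet3 (chr6:83362373-83459084) lie on the minus strand. Dppa3 (chr6:122626410-122630272) and Zfp57 (chr17:37001163-37010635) lie on the plus strand. Exons of Dnmt3l overlap Aire, those of Dnmt3a overlap Dnmt3aos and those of Tet2 overlap Gm42567, each on the opposite strand. Whether the counting used strand is not given in the sources used here, so reads in these overlaps could not be assigned with certainty. The highest count of these partners in any library was 109 for Aire, 52 for Dnmt3aos and 8 for Gm42567. The processed copies Dnmt3l-ps1, Dnmt3a-ps1 and Dppa3-ps had 0 counts in every library.

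The 250 bases before annotated starts are shown for 4 of the genes that were higher in MII oocytes (described further on), because they share that difference. They are also shown for a pair of Dnmt1 starts, because oocytes are known to use a Dnmt1 start upstream of the somatic one and gene counts add all starts together. The windows are from RefSeq on GRCm38.p6, on the strand of the gene and 5′ to 3′, and capitals mark CG dinucleotides, the sites of methylation. RefSeq windows matched 9 of the 10 genes, with 18 starts, and Dppa3 had none. The first Dnmt1 line is the most upstream of its starts (chr9:20959889-20960138, minus strand). The second lies downstream of it (chr9:20952980-20953229, minus strand). A further Dnmt1 start lies downstream of both, and its window (chr9:20952624-20952873) is not printed. Which of these starts is the somatic one was not tested. Then follow Dnmt3b (chr2:153649199-153649448), Dnmt3l (chr10:78042037-78042286), Uhrf1 (chr17:56303087-56303336) and Zfp57 (chr17:37000913-37001162), all on the plus strand and each the first start of its gene.
Dnmt1, upstream start: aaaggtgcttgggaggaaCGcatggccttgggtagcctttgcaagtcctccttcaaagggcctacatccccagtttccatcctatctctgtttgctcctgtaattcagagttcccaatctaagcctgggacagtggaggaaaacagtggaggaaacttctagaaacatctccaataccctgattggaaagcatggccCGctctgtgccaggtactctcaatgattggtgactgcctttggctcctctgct
Dnmt1, downstream start: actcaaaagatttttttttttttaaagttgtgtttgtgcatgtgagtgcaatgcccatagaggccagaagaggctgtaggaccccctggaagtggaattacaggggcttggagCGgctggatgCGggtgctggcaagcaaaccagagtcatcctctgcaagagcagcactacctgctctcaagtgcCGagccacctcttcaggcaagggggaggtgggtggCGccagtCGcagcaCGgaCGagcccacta
Dnmt3b: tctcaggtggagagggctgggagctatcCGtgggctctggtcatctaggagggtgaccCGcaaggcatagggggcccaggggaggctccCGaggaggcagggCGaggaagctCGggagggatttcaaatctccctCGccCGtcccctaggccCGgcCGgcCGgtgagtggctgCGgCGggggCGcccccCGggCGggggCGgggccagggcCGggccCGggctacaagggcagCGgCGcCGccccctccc
Dnmt3l: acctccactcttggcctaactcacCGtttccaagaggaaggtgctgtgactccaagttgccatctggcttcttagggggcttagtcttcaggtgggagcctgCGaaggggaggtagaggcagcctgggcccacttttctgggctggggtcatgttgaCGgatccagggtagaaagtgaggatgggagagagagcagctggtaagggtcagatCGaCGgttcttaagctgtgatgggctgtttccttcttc
Uhrf1: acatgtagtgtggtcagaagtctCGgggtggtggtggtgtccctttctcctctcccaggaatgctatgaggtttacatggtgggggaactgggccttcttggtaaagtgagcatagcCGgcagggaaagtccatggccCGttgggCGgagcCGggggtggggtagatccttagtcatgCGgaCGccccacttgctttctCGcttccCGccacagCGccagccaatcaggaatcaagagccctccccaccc
Zfp57: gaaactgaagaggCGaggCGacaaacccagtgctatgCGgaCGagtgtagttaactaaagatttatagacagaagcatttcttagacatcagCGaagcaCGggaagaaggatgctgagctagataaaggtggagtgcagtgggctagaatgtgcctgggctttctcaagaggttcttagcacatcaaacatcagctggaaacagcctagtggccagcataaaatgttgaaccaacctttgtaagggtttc

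These windows differed in their number of CG sites. The upstream Dnmt1 window held 2 and the downstream one 7, against a median of 6 over 32851 windows of the same length. The Dnmt1 window that is not printed held 26, and 90.4% of all windows held fewer. The printed Dnmt3l window held 5, Zfp57 6, Uhrf1 10 and Dnmt3b 21. A further Uhrf1 window that is not printed (chr17:56304063-56304312) held 30, and 94.1% of all windows held fewer. Further windows held 4 and 3 for Dnmt3l and 7 and 3 for Zfp57. The densest of the 18 windows found was that of Tet2, with 51, and 99.9% of all windows held fewer. The motif TAATTG, searched on both strands, was in none of the 18 windows and in 7.17% of all windows. Of the printed windows, the motif CANNTG was found once each in Dnmt3b, Uhrf1 and Zfp57, 2 times in downstream Dnmt1 and 3 times in Dnmt3l. It was not in the upstream Dnmt1 window, and 66.2% of all windows held it. TATAAA was found in the printed Zfp57 window and in 12.4% of all windows. These matches describe letters only.

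Depth and marker levels differed between the library sets. Total counts ran from 15149564 to 29205503 in the microdissected libraries and from 8652089 to 9978830 in the MII libraries. Genes with any count ran the other way, from 6147 to 13755 in the microdissected and from 12782 to 18239 in the MII libraries. The summed TPM of 15 oocyte markers had a median of 580 (3.92 to 2076) in the microdissected libraries and of 10260 (7559 to 12159) in the MII libraries. All 15 were counted in at least 1 microdissected library. The summed TPM of 14 granulosa markers ran the other way, with a median of 1820 TPM (380 to 3933) against 96.5 (54.6 to 123), as did that of 8 stroma and theca markers (1399, 460 to 7487, against 0.115, 0 to 2.40). Single granulosa markers went against their sum, such as Cyp19a1 (median 0 TPM in microdissected and 29.7 TPM in MII libraries) and Esr2 (1.08 and 41.2 TPM). Foxl2, Amhr2, Wt1 and Fst of the first list and Col1a2, Col3a1, Lum and Cyp17a1 of the second were at 0 in all 6 MII libraries. The 9 blood, immune and endothelial markers summed to 8.56 TPM (0 to 174) and 71.3 TPM (47.9 to 91.7), with Ptprc, Adgre1, Hbb-bs and Cdh5 at 0 in every MII library. Others of this list had higher medians in MII libraries, such as Pecam1 (0.0112 TPM in microdissected and 50.5 TPM in MII libraries). Csf1r (0 and 9.97 TPM) and Cd68 (0.0618 and 6.75 TPM) did so too. The library labelled primordial NTY replicate 3 stood apart, because its oocyte marker sum was the 3.92 TPM given above and it had 0 counts of Dppa3, Uhrf1 and Tet2. Yet this library held 1539 counts of Dnmt3a, 82 of Zfp57, 62 of Dnmt3b and 37 of Tet1. It and primordial sham replicate 1 were both low in Dnmt1 (0.155 and 0.144 TPM) and Tet3 (0.266 and 0.444 TPM). Primary NTY replicates 2 and 3 carry library codes that differ by 1 added character and may be related. In bulk RNA, fewer oocytes in a sample and less RNA per oocyte cannot be told apart.

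**Figure D1:**
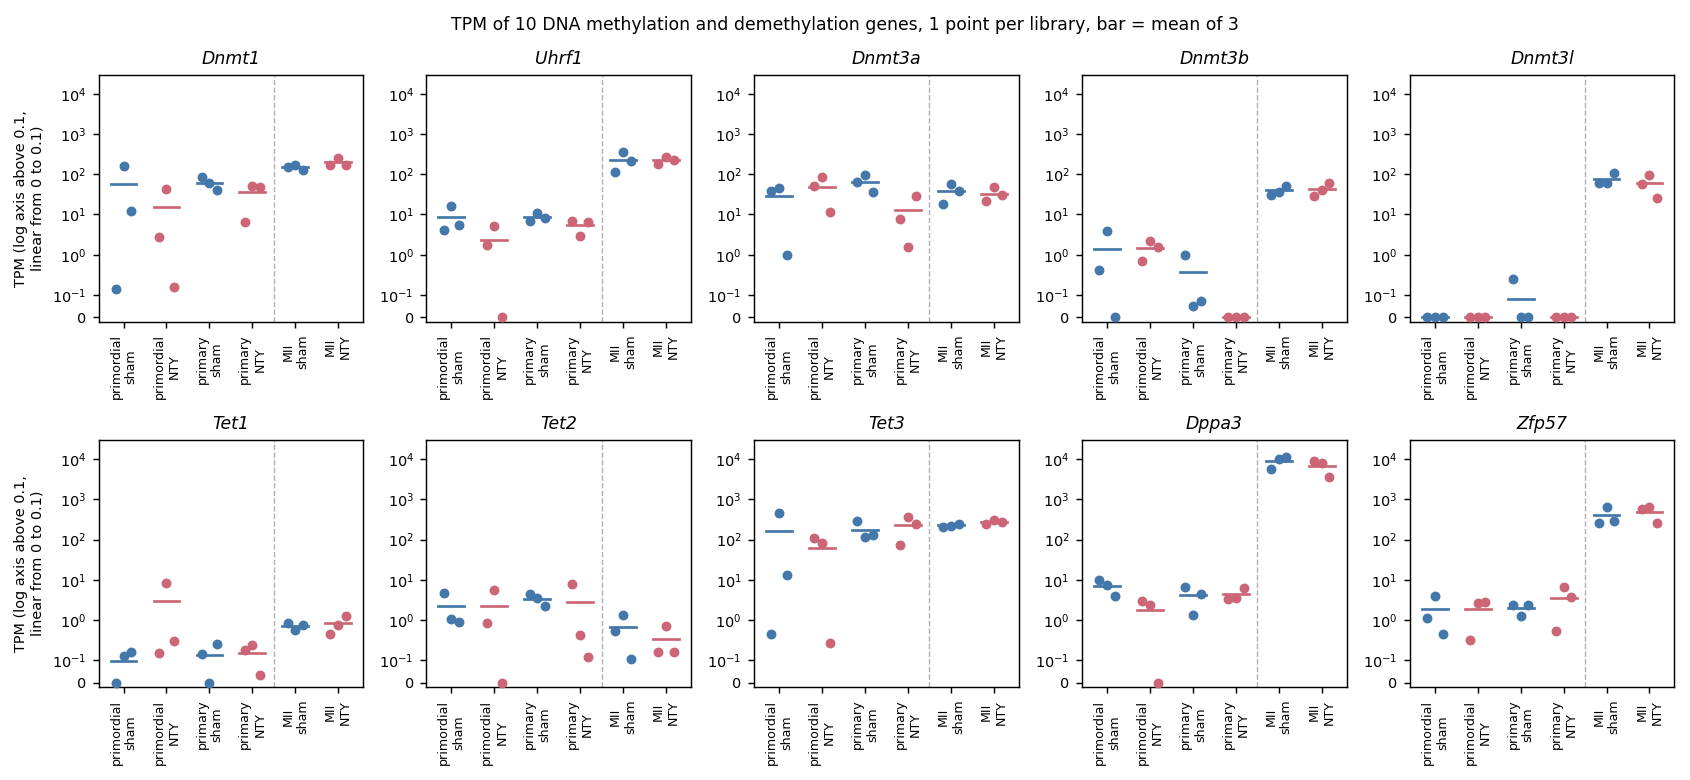
TPM of each gene (vertical axis, logarithmic above 0.1 and linear from 0 to 0.1) in the 18 libraries, with blue points for sham, red points for NTY and a bar for the mean of 3. Dppa3, Zfp57, Uhrf1, Dnmt3b and Dnmt3l lie higher in all 6 MII libraries, right of the dashed line, than in the 12 microdissected ones, whereas Dnmt1, Dnmt3a and the Tet genes overlap.

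The order of the levels changed with stage. In primordial follicles Tet3 (median 47.4 TPM over 6 libraries), Dnmt3a (41.6) and Dnmt1 (7.66) led, and in primary follicles Tet3 (190), Dnmt1 (50.5) and Dnmt3a (32.6). Neighbours in these orders overlapped, except that every primary library held more Zfp57 than Tet1. In MII oocytes Dppa3 came first with a median of 8482 TPM and did not overlap the next. Zfp57 (437), Tet3 (242), Uhrf1 (218) and Dnmt1 (171) followed and overlapped their neighbours. Below a gap came Dnmt3l (60.3), Dnmt3b (38.7) and Dnmt3a (35.0), and after a further gap Tet1 (0.749) and Tet2 (0.338). Dppa3 made up 77.6% to 91.2% of the summed TPM of the 10 genes in MII oocytes and 0% to 16.6% in microdissected libraries. All 10 genes had over 3 counts in every MII library, against 6 to 10 genes in the microdissected libraries.

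MII oocytes were compared with oocytes from primary follicles to ask how these transcripts differ between the start of growth and the mature egg. In edgeR's quasi-likelihood test, 5 of the 10 genes were higher in MII oocytes and 0 were lower (Benjamini-Hochberg adjusted p under 0.05). Over all 15929 genes tested, 52.6% were called, 35.0% as higher and 17.5% as lower, so calls in this comparison were common. With another scaling (RLE), 78.6% of calls were higher, against 66.6% with the TMM scaling used here. The median log2 fold change of all genes was 1.30 with TMM and 2.80 with RLE, and a change is best read against that shift. The same 5 genes, of 9 that passed a TPM filter, were above all 12 microdissected libraries in all 6 MII libraries, as were 23.3% of 14965 genes. None of the 9 was below, against 2.83% of genes. How much of these differences goes with the library method or with the higher sum of oocyte markers was not tested.

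Dppa3, the protector of the maternal genome, reached the highest TPM of the 10 genes. MII sham libraries held 5509, 10261 and 11202 TPM and MII NTY libraries 9040, 7923 and 3621 TPM. Primary sham libraries held 6.65, 1.33 and 4.46 TPM and primary NTY libraries 3.38, 3.45 and 6.29 TPM. Primordial sham libraries held 9.98, 7.24 and 4.01 TPM and primordial NTY libraries 3.01, 2.37 and 0 TPM. The lowest MII library was thus 363 times the highest microdissected one. The log2 fold change against primary was 10.30 (SE 1.08, adjusted p = 6.53e-06). The median log2 fold change of all genes was 1.30.

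Zfp57, the keeper of imprints, was at 253, 637 and 296 TPM in MII sham and 578, 638 and 253 TPM in MII NTY libraries. In the microdissected libraries it ran from 0.315 to 6.50 TPM with a median of 2.37. The groups did not overlap, and the lowest MII library was 38.9 times the highest microdissected one. Its log2 fold change was 6.73 (SE 1.17, adjusted p = 0.000778), or 5.43 above the median of all genes.

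Of the maintenance pair, Uhrf1 passed the edgeR test with TMM and Dnmt1 did not, and the difference between them was not tested. Uhrf1, which brings Dnmt1 to newly copied DNA, was at 114, 356 and 210 TPM in MII sham and 179, 264 and 226 TPM in MII NTY libraries. The microdissected libraries ran from 0 to 16.5 TPM with a median of 5.97. All MII libraries were higher, by at least 6.94 times, and the log2 fold change was 4.42 (SE 1.19, adjusted p = 0.00605), or 3.12 above the median of all genes. Dnmt1 was at 149, 172 and 128 TPM in MII sham and 174, 251 and 170 TPM in MII NTY libraries. In primary follicles it was at 85.1, 59.0 and 41.7 TPM in sham and 6.38, 52.2 and 48.8 TPM in NTY libraries, all below every MII library. In primordial follicles the 6 values ran from 0.144 to 163 TPM, and primordial sham replicate 2 lay within the MII range. The log2 fold change of Dnmt1 was 1.27 (SE 1.18, adjusted p = 0.379), at the median of all genes. With DESeq2 it was 2.72 and past the threshold (adjusted p = 0.0159), against a median of 2.89 over all genes. With RLE it was 2.72 (adjusted p = 0.0521 in edgeR), against a median of 2.80.

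Among the de novo group, Dnmt3l and Dnmt3b were higher in MII oocytes and Dnmt3a did not pass the test. Dnmt3l, the inactive partner, had 0 counts in 11 of 12 microdissected libraries, each of which allows at most 0.118 to 0.213 TPM at 3 counts. The remaining library, primary sham replicate 1, held 5 counts (0.242 TPM). MII sham libraries held 58.9, 61.6 and 104 TPM and MII NTY libraries 57.7, 95.8 and 25.1 TPM. The lowest of these was 103 times the only microdissected value above 0. Its fitted log2 fold change was 11.07 (SE 1.98, adjusted p = 0.00117), which depends on the prior count.

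Dnmt3b was low but not absent before MII, and 3 of its 4 zeros were in primary follicles. Primordial sham libraries held 10, 165 and 0 counts and primordial NTY libraries 24, 78 and 62. Primary sham libraries held 35, 2 and 3 counts and all 3 primary NTY libraries 0, which allows up to 0.0822 TPM. MII sham libraries held 31.2, 36.3 and 50.9 TPM and MII NTY libraries 29.5, 41.0 and 59.0 TPM, all at least 7.76 times the highest microdissected library. The log2 fold change against primary was 9.75 (SE 1.86, adjusted p = 0.00109), also dependent on the prior count.

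Dnmt3a, the main de novo enzyme of the oocyte, was at a median of 35.0 TPM in the 6 MII libraries, from 21.2 to 46.8 TPM in MII NTY and up to 56.0 TPM in MII sham libraries. Primary sham libraries held 62.7, 94.0 and 36.1 TPM and primary NTY libraries 7.91, 1.51 and 29.1 TPM. Primordial values ran from 0.999 to 85.8 TPM. The groups overlapped, and the log2 fold change was −0.30 (SE 0.90, adjusted p = 0.813). With RLE it was 1.30, so its sign depended on the scaling, although it lay below the median of all genes with both (−1.60 and −1.50).

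**Figure D2:**
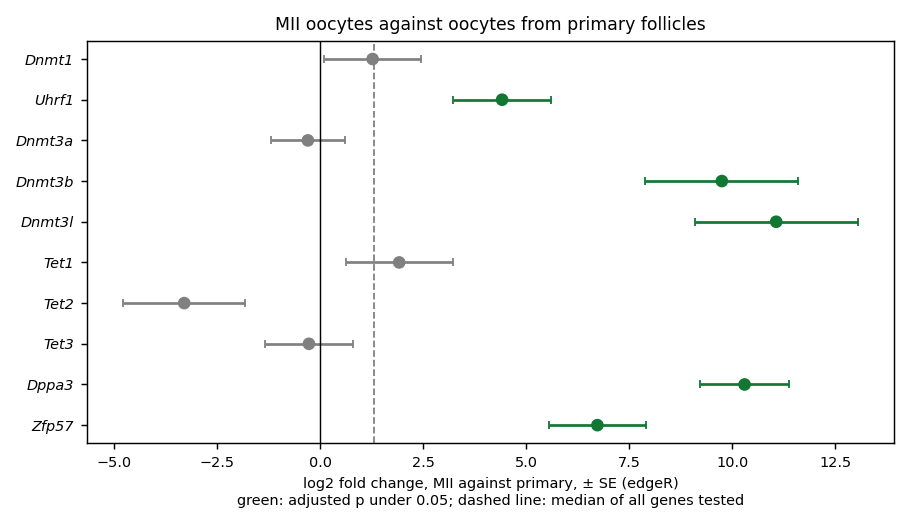
Log2 fold change of each gene in MII oocytes against oocytes from primary follicles with its SE (edgeR, 6 against 6 libraries), green where the adjusted p was under 0.05. The 5 green points lie between 4.42 and 11.07, right of the dashed line at the median of all genes tested, 1.30.

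The Tet enzymes showed no change past the threshold in edgeR with TMM and all 18 libraries. Tet3 was at 209, 222 and 245 TPM in MII sham and 239, 304 and 280 TPM in MII NTY libraries. Primary sham libraries held 286, 112 and 133 TPM and primary NTY libraries 75.2, 368 and 246 TPM, on both sides of the MII values. In primordial follicles the values spread from 0.266 to 469 TPM. The log2 fold change of Tet3 against primary was −0.27 (SE 1.06, adjusted p = 0.862) with TMM and 1.16 with RLE.

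Tet1 and Tet2 were low at every stage. Tet2 had a median of 2.82 TPM (0.118 to 8.07) in primary and 0.338 TPM (0.109 to 1.36) in MII libraries, which overlapped. Its log2 fold change was −3.30 (SE 1.48, adjusted p = 0.068). Fitted with the primary and MII libraries alone, it passed with an adjusted p of 0.0215 in edgeR, and over all alternatives the adjusted p ran from that value to 0.310. Tet1 was between 0.454 and 1.26 TPM in MII libraries, with 24 to 66 counts. In microdissected libraries it was at 0.304 TPM or less, except for primordial NTY replicate 2 with 922 counts (8.41 TPM). Its log2 fold change was 1.92 (SE 1.30, adjusted p = 0.224). With RLE it was 3.31 (adjusted p = 0.0428 in edgeR), against a median of 2.80 over all genes. DESeq2 called Tet1 higher too, with 3.33 (adjusted p = 0.00482) against a median of 2.89. Tet3 made up 99.1% to 99.7% of the summed Tet TPM in every MII library and 8.45% to 99.9% in the microdissected ones.

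The make-up of the DNA methyltransferases was then set out by library. Of the summed TPM of Dnmt1, Dnmt3a, Dnmt3b and Dnmt3l, Dnmt1 held 39.7% to 61.6% in MII oocytes and 0.363% to 97.2% in microdissected libraries. Dnmt3a held at most 17.2% in MII oocytes and 2.82% to 98.6% in microdissected libraries. Dnmt3l held 8.80% to 32.3% and Dnmt3b 9.45% to 20.7% in MII oocytes. In microdissected libraries they held at most 0.163% and 11.5%, the latter in primordial NTY replicate 3. The MII shares of Dnmt3l lay above every microdissected share.

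**Figure D3:**
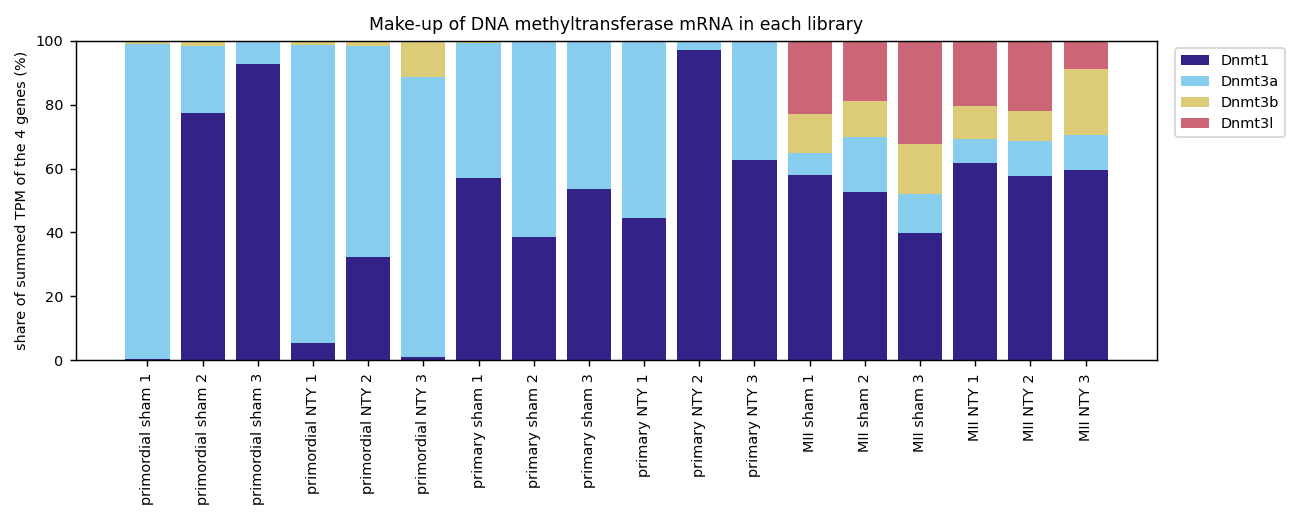
Share of Dnmt1, Dnmt3a, Dnmt3b and Dnmt3l in their summed TPM (vertical axis, %) in each of the 18 libraries. Dnmt3l and Dnmt3b fill 8.80% to 32.3% and 9.45% to 20.7% of the 6 MII bars on the right, whereas Dnmt1 and Dnmt3a fill most of the 12 microdissected bars in varying parts.

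The same genes were set against the summed TPM of the 15 oocyte markers in each library, since that sum was lower in the microdissected libraries. Gdf9 alone had a median of 6554 TPM in MII libraries, so it carried most of the sum there. As a percentage of that sum, Dppa3 was at 47.9% to 95.5% in MII oocytes and 0% to 2.76% in microdissected libraries. Dnmt3l was at 0.331% to 0.889% against 0% to 0.0212%. Zfp57 was at 2.53% to 5.96% against 0.0761% to 1.98% once primordial NTY replicate 3 (70.0%) was left out. Without that library Dnmt3b ran up to 0.409% in microdissected libraries, into the MII range of 0.304% to 0.781%, but stayed at 0.0868% or less in primary libraries. Uhrf1 overlapped, with 1.36% to 3.29% in MII oocytes and up to 1.95% in microdissected libraries. Tet3 was at 2.05% to 3.70% in MII oocytes and 0.123% to 112% in microdissected libraries, which overlapped, although the primary libraries alone (13.6% to 112%) did not. The medians of Dnmt3a were 0.360% in MII and 4.05% in primary libraries, and those of Dnmt1 1.78% and 6.89%. These ratios also rest on how the marker genes themselves changed, and 5 of the 15 markers were higher and 1 lower in MII oocytes.

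NTY was compared with sham at each stage to see whether these genes differ between the groups. None of the 10 genes passed the threshold at any stage in edgeR or in DESeq2. At an unadjusted p under 0.05, edgeR gave 0 genes in primordial follicles, 1 in primary follicles (Dnmt3b) and 0 in MII oocytes. Over all genes edgeR called 0.00950% of 10522 in primordial follicles, 0% of 10522 in primary follicles and 0% of 12209 in MII oocytes. At an unadjusted p under 0.05 these numbered 1145, 858 and 280 genes, and DESeq2 called 1201, 693 and 29. Dnmt3l was not tested in the microdissected libraries, where its counts were too low.

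The precision differed between stages. In MII oocytes the SE was 0.25 to 0.45 on the log2 scale for the 8 genes other than Tet1 and Tet2. Dnmt1 was at 150 ± 21.8 TPM (SD, n = 3) in sham and 198 ± 45.5 in NTY oocytes, with a log2 fold change of 0.40 (SE 0.27). Tet3 was at 225 ± 18.4 and 274 ± 33.1 TPM, with 0.30 (SE 0.25). Dppa3 was at 8991 ± 3052 and 6861 ± 2862 TPM, with −0.35 (SE 0.33), and Dnmt3l at 74.9 ± 25.4 and 59.5 ± 35.4 TPM, with −0.36 (SE 0.45). The lowest Dppa3 and the lowest Dnmt3l values of the MII set were both in MII NTY replicate 3. Zfp57 (0.36, SE 0.37), Dnmt3b (0.19, SE 0.39), Uhrf1 (0.08, SE 0.33) and Dnmt3a (−0.11, SE 0.37) lay within their error. Tet1 (0.20, SE 0.95) and Tet2 (−0.97, SE 1.29) rested on few counts. All 10 adjusted p-values were 1.00 in edgeR. In TPM no gene had NTY and sham libraries that did not overlap, against 7.94% of genes.

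In the microdissected libraries the SE ran from 1.47 to 3.15, so the estimates were far less precise than in MII oocytes. Dnmt3b in primary follicles had the lowest p. Its counts, given above, were 2 to 35 in sham and 0 in NTY libraries, with a fitted log2 fold change of −6.34 (SE 3.04, adjusted p = 0.583 in edgeR), and of −6.41 with replicates 2 and 3 of NTY summed. In primordial follicles Dnmt3b showed a log2 fold change of 0.18 (SE 2.50). The NTY effect in primary follicles minus that in primordial follicles was −6.52 (SE 3.57, adjusted p = 0.500 in edgeR), and for none of the 9 genes tested did that difference pass, against 0.00950% of all genes. No gene had an unadjusted p under 0.05 there, and DESeq2 called none of the 9.

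In primary follicles all NTY libraries lay below all sham libraries for Dnmt3b, for Uhrf1 and for Dnmt3a, 3 of 9 genes. Of all genes, 10.3% lay below in the same way. For Dnmt3b this rests on counts at the floor. A count of 0 allows up to 0.0822 TPM, and primary sham replicates 2 and 3 held 0.0518 and 0.0731 TPM. The share of 10.3%, and that of 1.92% given below, count only the direction in which these genes lay, not either direction. Uhrf1 was at 8.75 ± 2.06 TPM (SD, n = 3) in sham and 5.39 ± 2.14 TPM in NTY libraries, with a log2 fold change of −0.32 (SE 2.76). Dnmt3a, whose values stand above, had −2.03 (SE 2.05). In primordial follicles Dppa3 alone showed no overlap, 1 of 9 genes against 1.92% of all genes that lay below in the same way, with the lowest NTY value in the replicate that held few oocyte markers. Its log2 fold change was −2.10 (SE 2.46, adjusted p = 0.850), and −1.63 without that replicate, whose removal left the groups apart. Dnmt1 had −2.24 (SE 2.51), Uhrf1 −2.13 (SE 2.87) and Tet3 −1.51 (SE 1.49). Leaving out each of the 6 libraries in turn gave −5.31 to 0.96 for Dnmt1, −3.35 to −1.29 for Uhrf1 and −2.25 to 3.08 for Tet3, with both positive values reached without primordial sham replicate 2. Marker sums differed between these groups too. Oocyte markers summed to 3.92, 172 and 681 TPM in NTY and 362, 593 and 2076 TPM in sham libraries, with a median log2 fold change of −1.79 against 0.12 over all genes. Granulosa markers summed to 2022 to 3933 TPM in NTY and 380 to 2223 TPM in sham libraries, with a median of 2.05. No marker of either list passed in edgeR, and their part in the values of Dppa3, Dnmt1 and Uhrf1 was not tested. Tet1 had 4.67 (SE 3.15, adjusted p = 0.627) in primordial follicles, with 922 of the counts in replicate 2, and without that library it was 1.64.

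**Figure D4:**
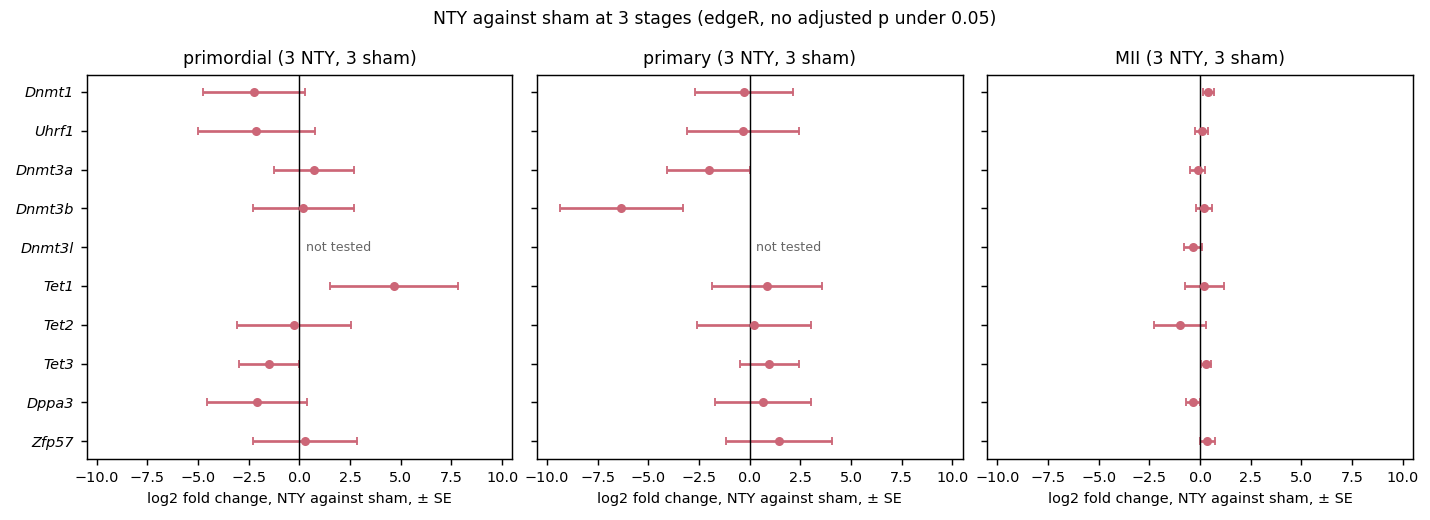
Log2 fold change of NTY against sham with its SE (horizontal axis) for each gene in primordial follicles, primary follicles and MII oocytes, 3 against 3 libraries each (edgeR). In MII oocytes the SE is 0.25 to 0.45 for the 8 genes other than Tet1 and Tet2, whereas in the microdissected libraries the SE is 1.47 to 3.15 and no adjusted p is under 0.05.

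Primary follicles were compared with primordial follicles to see whether these genes change as the follicle is activated. None of the 9 genes tested passed in edgeR, which called 0% of 10522 genes (1132 had an unadjusted p under 0.05). Dnmt3b had over 3 counts in 5 of 6 primordial and 1 of 6 primary libraries, with a log2 fold change of −5.64 (SE 2.10, adjusted p = 0.323 in edgeR). DESeq2 called it as lower (adjusted p = 0.0101), 1 of the 9 genes. Of all 10522 genes DESeq2 called 1021, with 641 higher and 380 lower, so such calls were common there. Over all alternatives the adjusted p of Dnmt3b ran from 0.0101 in DESeq2 to 0.958. It was the only one of the genes with an unadjusted p under 0.05. Tet3 (1.05, SE 1.04), Dnmt1 (0.79, SE 1.71) and Uhrf1 (0.73, SE 1.96) lay within about 1 SE. In TPM no gene of the 9 separated the stages, against 0.114% of all genes.

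Other genes of the pathway were counted in 6 lists in MII oocytes against primary follicles. Partners of maintenance and further methyltransferases had 5 higher and 2 lower of 10 tested, with a median log2 fold change of 3.55 against 1.30 over all genes. The higher ones were Trdmt1 (8.02, SE 1.85), a transfer RNA methyltransferase, Dnmt3c (6.79), Pcna (4.87), the replication clamp, Cdca7l (4.51) and Hells (4.47), a chromatin remodeller needed for DNA methylation. Dnmt3c arose by duplication of Dnmt3b, so reads they share are uncertain. Uhrf2, a relative of Uhrf1, was lower (−7.91, SE 1.94, adjusted p = 0.00366), with a median of 23.6 TPM in primary and 0.246 TPM in MII libraries. Usp7 (−2.37), a deubiquitinase, was lower too, was named after its values were seen, and lost its call with RLE. Dnmt3c lost its call with a replicate block (adjusted p = 0.114 in edgeR), and Cdca7l with the block (0.0511) and with any count as the filter (0.0505), so that the block left 3 higher.

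Of 15 genes tested in the list of Tet partners and base excision, 4 were higher and 2 lower (median −0.65), against 35.0% and 17.5% of all genes. The DNA glycosylases Neil3 (7.70), Ung (6.19) and Smug1 (6.03) and the stress gene Gadd45b (5.13) were higher. Neil3 had a median of 0.213 TPM in primary and 227 TPM in MII libraries. Idh2, which makes the cofactor of the Tet enzymes in mitochondria, was lower (−11.44) and was at 0 to 1.46 TPM in MII against 34.8 to 321 TPM in primary libraries. Ogt, a glycosyltransferase that binds Tet proteins, was lower (−2.20), a call lost with RLE (−0.74).

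Of 11 genes of imprint protection and methyl-CpG binding, 2 were higher and 2 lower (median −1.45). Zfp445, which guards imprints beside Zfp57, was at 3.58 (SE 1.11, adjusted p = 0.0130, and 0.0752 with any count as the filter) and Mbd4, a glycosylase of CpG sites, at 5.58. Among the lower genes was Zbtb38 (−6.63), a reader of methylated DNA. Trim28, the partner that Zfp57 recruits, had −0.07 (SE 0.83), with medians of 99.8 TPM in primary and 137 TPM in MII libraries.

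Histone methylation enzymes that shape where the oocyte methylates DNA had 0 higher and 6 lower of 9 tested (median −2.43). They were Ehmt2 (−5.66), Setd2 (−3.47), Kmt2d (−2.53), Kmt2b (−2.47), Kdm1a (−2.43) and Setdb1 (−2.40). With RLE only Ehmt2 kept its call (−4.17), and the median was −0.89, against 2.80 over all genes. DESeq2 called 2 of these genes higher and 2 lower, and limma on log2(TPM + 1) called 0 higher and 3 lower. In methyl donor supply, 1 of 12 was higher and 3 lower (median 0.51). Shmt1, of folate metabolism, was at 5.73, and the lower genes included Ahcy (−8.80), which clears the product of methylation, and Ahcyl1 (−5.50). With RLE the higher and lower genes of this list numbered 3 and 3, and with DESeq2 6 and 3.

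Of 14 imprinted genes with methylation set in the oocyte, 1 was higher and 4 lower in edgeR (median −0.27), against 3 and 3 in DESeq2. Airn (3.61), a noncoding RNA that overlaps Igf2r on the other strand, was higher, a call lost with any count as the filter (adjusted p = 0.0787 in edgeR). Nnat (−9.54), Gnas (−6.40), Zrsr1 (−6.23) and Peg10 (−4.97) were lower, and Zrsr1 lost its call with RLE and Nnat with limma on log2(TPM + 1). In the same comparison 7 of 14 granulosa markers were lower and 3 higher (Cyp19a1 at 10.25, Fshr at 5.71 and Esr2 at 3.55), and all 6 stroma and theca markers tested were lower. Their part in the calls of these lists was not tested. In the other comparisons no gene of the 6 lists passed in edgeR. Among the 64 list genes tested in the microdissected libraries, 3 to 5 had an unadjusted p under 0.05 in each comparison, and DESeq2 called 2 to 7. In MII oocytes 0 of 60 had an unadjusted p under 0.05 for NTY in edgeR, and DESeq2 called 0.

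**Figure D5:**
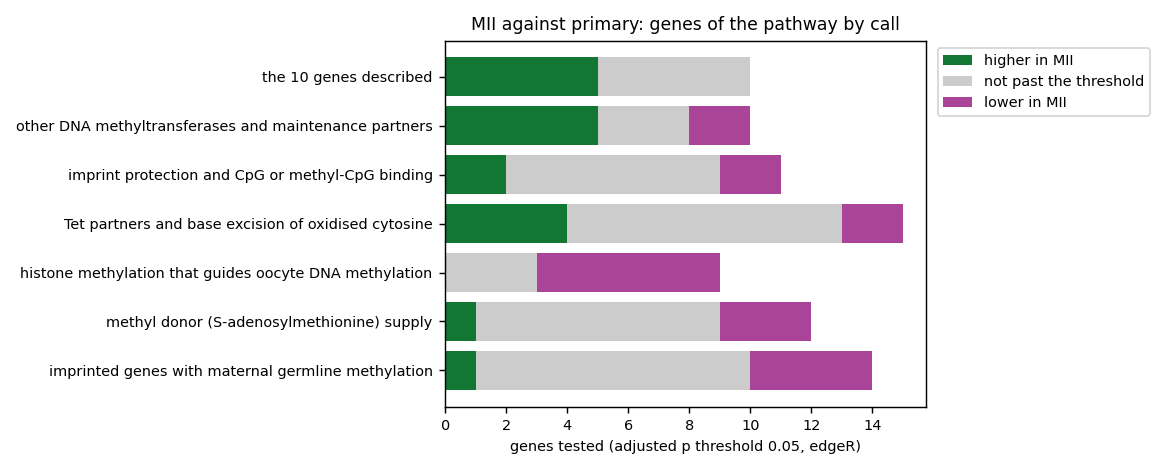
Number of genes tested (horizontal axis) in the 10 genes described and in 6 lists of the pathway, split by call in MII oocytes against primary follicles (edgeR). The 10 genes have 5 higher and 0 lower, and the histone methylation list has 0 higher and 6 lower of 9. Of all genes tested, 35.0% were higher and 17.5% lower.

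The genes most alike in pattern were found among 9818 genes with a mean of at least 5 TPM, by Pearson's r of log2(TPM + 1) over the 18 libraries, as a description. All points share the step between library methods. Mphosph6 was nearest to Dppa3 (r = 0.995), Accsl to Zfp57 (0.991), Khdc1b to Uhrf1 (0.980) and Lig4 to Dnmt3b (0.985). For Dnmt3l it was Gm44796 (0.998), which had a median of 0 TPM in microdissected and 69.0 TPM in MII libraries. Nup214 was nearest to Tet3 (0.950), D6Ertd527e to Dnmt1 (0.959), Psenen to Dnmt3a (0.887), Atg13 to Tet2 (0.929) and Gm9144 to Tet1 (0.962).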

How the data were processed

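RNA was measured in 18 libraries of mouse oocytes in 6 groups of 3, with groups and replicate numbers from the labels. The authors deposited raw counts of reads for 53715 genes, not normalized, and TPM for 28252 of them, which are counts per gene length brought to a total of 1000000 in every library. Their processing notes name Trim Galore 0.4.1, TopHat2, featureCounts and mm10, with no settings. Reads shared between similar genes may have been split or dropped. The 10 genes and the gene lists were chosen with earlier results of these data known.

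Counts were tested in R 4.3.3 with edgeR 4.0.16 (quasi-likelihood, robust, TMM, filterByExpr by group), adjusted by Benjamini-Hochberg over all genes tested (10522 in the 12 microdissected libraries, 12209 in the 6 MII libraries alone, 15929 in all 18), with a threshold of 0.05. SE is the log2 fold change divided by the square root of F. Alternatives were RLE, any count as the filter, only the groups compared, DESeq2 1.42.0, limma 3.58.1 on log2(TPM + 1) and log2(TPM + 0.1) with a TPM of at least 1 in 3 libraries, a replicate block, primary NTY replicates 2 and 3 summed, and leaving out each library. The TPM filter also served for the overlap of groups. A floor of 3 counts is the limit that a count of 0 allows, and covers counting error only. Named list genes were those past the threshold (up to 6 per list by size), or else the 2 of highest mean TPM, and Trim28 and Usp7 fall outside this rule. A gene in each of 2 lists is counted but not reported here. Levels and figures were made with pandas 2.3.3, numpy 2.4.6 and matplotlib 3.10.9 in Python 3.11.15.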

Additional observations from a re-analysis of the deposited data

How the results depend on the processing

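Of 890 log2 fold changes of the 10 genes under alternatives, 834 kept their direction and side of the threshold, 5 passed it newly, 51 changed sign and 0 lost a call. The 5 genes higher in MII oocytes against primary follicles were called in all alternatives (5 genes in each of 12 runs that left out 1 library, 6 with RLE, which added Tet1, 7 with DESeq2, which added Tet1 and Dnmt1, and 6 with only the groups compared, which added Tet2). Calls over all genes rose too. RLE called 43.2% of genes higher and DESeq2 43.9%, against 35.0% in the main fit. With only the groups compared, 3123 of 14817 genes were lower, against 2794 of 15929 in the main fit. For primary against primordial, DESeq2 called 1 of the genes and all other alternatives 0. The cause was not tested. Signs changed as follows, in log2 fold changes that no fit called. MII against primary: Dnmt3a 1.30 with DESeq2 and with RLE, 0.66 and 0.55 with limma on log2(TPM + 0.1) and log2(TPM + 1), and Tet3 1.16, 1.16, 0.50 and 0.49 in the same order. NTY in primary follicles: Dnmt1 0.21 with DESeq2 and RLE, Tet2 −1.76 and −0.81 with limma on log2(TPM + 0.1) and log2(TPM + 1). NTY in primordial follicles: Tet3 0.091 with limma on log2(TPM + 1). Difference of the NTY effect: Tet2 −0.64 and −0.52 with the same pair of limma fits. Primary against primordial: Zfp57 −0.0047 with primary NTY replicates 2 and 3 summed. Leaving out 1 library at a time gave, for NTY in primordial follicles, Dnmt1 −5.31 to 0.96, Dnmt3b −0.41 to 2.97, Tet2 −2.41 to 0.85, Tet3 −2.25 to 3.08, Zfp57 −0.65 to 1.57. For NTY in primary follicles it gave Dnmt1 −0.76 to 0.21, Tet2 −3.05 to 0.79, Uhrf1 −0.57 to 0.10, and for NTY in MII oocytes Dnmt3a −0.36 to 0.15, Dnmt3b −0.22 to 0.39, Tet1 −0.38 to 0.53, Uhrf1 −0.15 to 0.41. For the difference of the NTY effect it gave Dnmt1 −1.21 to 5.01, Tet2 −2.79 to 2.63, Tet3 −2.06 to 3.21, Zfp57 −0.076 to 2.21, for primary against primordial Dppa3 −0.092 to 0.61, Tet2 −1.02 to 1.69, Zfp57 −0.23 to 0.92, and for MII against primary Dnmt3a −0.56 to 0.36, Tet3 −0.49 to 0.089. Over all genes, edgeR and DESeq2 called 1 and 1201 for NTY in primordial follicles, 0 and 693 in primary follicles, 0 and 29 in MII oocytes, 0 and 1021 for primary against primordial, and 1 and 1216 for the difference. Other counts over 1.5 times apart were 6 with only the groups compared, 2 with RLE and 0 to 3 without 1 library for NTY in primordial follicles, 3 and 2 with limma for NTY in primary follicles, 3 with any count and 0 to 3 without 1 library for primary against primordial, and 11 with any count, 0 with the summed libraries and 0 to 8 without 1 library for the difference. No label states whether replicate numbers pair the libraries. Same-numbered deviations correlated by 0.049, 0.061 and 0.055 in primordial, −0.060, −0.022 and 0.0098 in primary and 0.155, −0.082 and −0.128 in MII libraries. With 3 libraries per group and a wide spread, such values cannot decide whether the numbers are pairs. With a replicate block the genes called were 0 in every comparison but MII against primary (5), and the sign changed for Tet2 (−1.18 for the NTY effect in primary follicles, −0.37 for the difference) and for Dnmt3a (0.019 for primary against primordial). Dnmt3l before MII and Dnmt3b in primary follicles rest on few or no counts. The microdissected libraries had the higher total counts, but 6147 to 13755 genes had any count in them, against 12782 to 18239 in MII libraries. Total counts alone therefore do not show how well rare transcripts were captured.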
